A study of Mus musculus with 4 samples.

Results

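Chemokine genes were taken as all protein-coding genes whose name begins with Ccl, Cxcl, Cx3cl, Xcl, Ccr, Cxcr or Ackr followed by a digit. The rule gave 58 of the 54446 genes in the table, of which 37 encode ligands and 21 encode receptors. RNA was sequenced from endothelial cells, the lining cells of blood vessels, which had been isolated from mouse retina by flow cytometry with 100 cells per library. There were 2 Zeb1-CKO libraries, from C57BL/6 mice at postnatal day 16 in which Zeb1 is conditionally knocked out according to the titles and knocked down according to the genotype field. The other group was 2 control libraries from mice of the same strain and age. Zeb1 encodes a zinc-finger repressor of transcription. What drives the deletion, and what alleles the controls carry, is not given in the sources used here. No label says whether the libraries of a genotype stem from different mice, so each p-value measures only a spread between samples that may be technical.

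Chemokines are small secreted or membrane-bound proteins that guide leukocytes along gradients through G protein-coupled receptors. Endothelial cells hold them on surface heparan sulfate, where passing leukocytes meet them, and they make several of them when inflammatory signals activate NF-kappaB. Atypical chemokine receptors bind chemokines without G protein signalling and scavenge or transport them. In the retina, microglia are the resident macrophages and a known source of the inflammatory ligands Ccl3 and Ccl4, while Cx3cl1 and Cxcl12 are made by neurons, vessel cells or both.

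Values are FPKM, fragments counted per kilobase of a transcript and scaled to each library's total, so levels of different genes can be set side by side per length. The libraries held an estimated 21.9 and 16.8 M fragments in Zeb1-CKO and 20.6 and 11.2 M in control. Endothelial markers were abundant throughout, with 10 genes summing to 4267 and 4639 FPKM in Zeb1-CKO libraries and to 3759 and 4535 FPKM in controls, led by Cldn5. Markers of pericytes and smooth muscle were also present, at 1499 and 1592 FPKM against 2145 and 1768 FPKM in controls. Zeb1 was at 8.66 and 7.07 FPKM in Zeb1-CKO libraries and at 10.7 and 11.1 FPKM in controls. The targeted gene was thus lower in both Zeb1-CKO libraries, but its log2 fold change of -0.43 (SE 0.15) did not pass limma, with a Benjamini-Hochberg adjusted p of 0.235.

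Of the 58 chemokine genes, 19 averaged at least 1 FPKM over the 4 libraries and were fitted, 15 ligands and 4 receptors. The fit was limma on log2(FPKM + 1), a scale that understates the change of low genes, with Benjamini-Hochberg adjustment over all 13651 fitted genes and a threshold of 0.05. Cxcl16 was higher in Zeb1-CKO cells, Ccl3 and Ccl4 were lower, and 16 members did not pass. Over all fitted genes 3.13% passed, with 2.23% higher and 0.901% lower. That background of 427 genes was 66 without Zeb1-CKO replicate 1, 72 without Zeb1-CKO replicate 2 and 282 without control replicate 1, where members gave 2, 2 and 4 calls. At an unadjusted p under 0.05 there were 7 members, against 17.9% of all fitted genes. The genotypes did not overlap in 9 of the 19 members, against 49.4% of all fitted genes, so that share was close to the background; 3 of them were higher in Zeb1-CKO, against 27.1% of all fitted genes, and 6 lower, against 22.3%. The median log2 fold change of the 19 was -0.33, beside 0.02 over all fitted genes, with 6 members above 0 and 13 below.

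**Figure D1:**
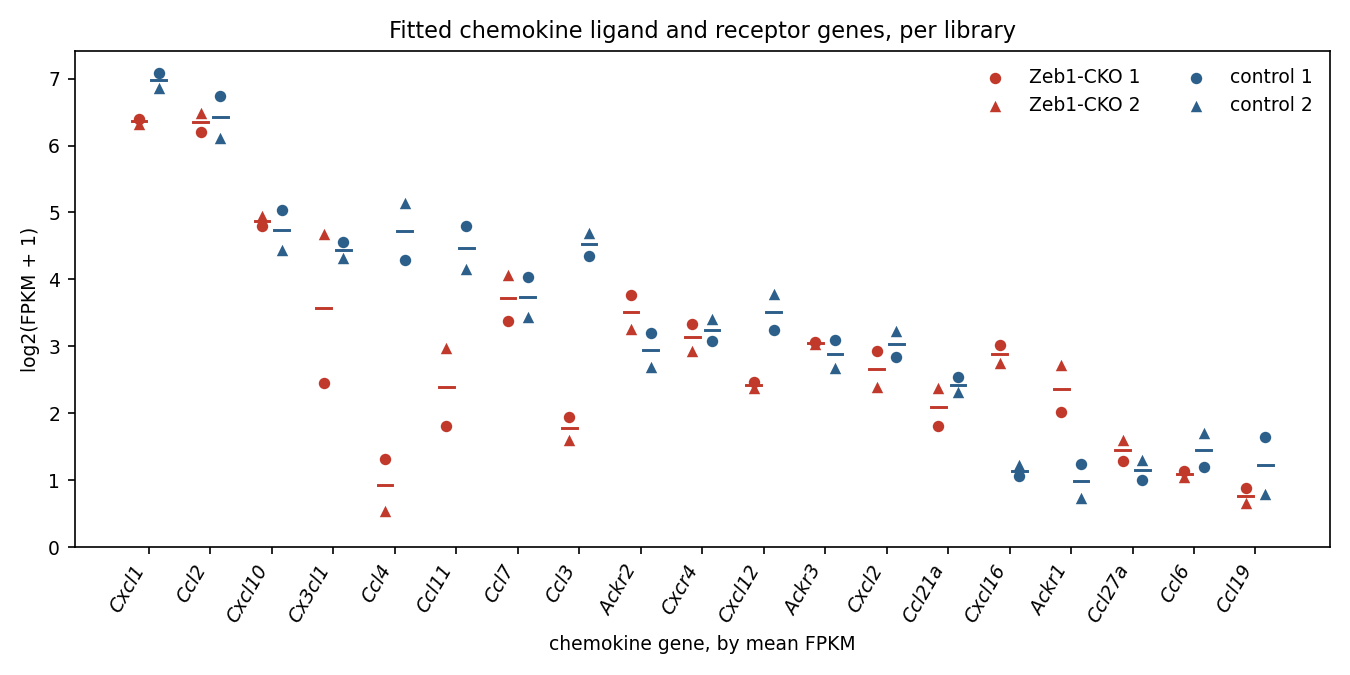
Levels of the 19 fitted chemokine genes as log2(FPKM + 1) in each library, Zeb1-CKO in red left of control in blue; short lines are genotype means over 2 libraries. Cxcl1 and Ccl2 stand highest in all libraries, while Ccl3, Ccl4 and Cxcl16 separate widely by genotype.

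The promoters of 3 inducible ligands, Cxcl1, Cxcl2 and Cxcl10, are shown because NF-kappaB, known to activate these genes, has matches in them. The windows run from 250 to 51 bases before the transcription start in RefSeq (GRCm38.p6), written 5′ to 3′ on the gene's strand, and capitals mark letters matching the NF-kappaB consensus on either strand. Cxcl1 lies on the plus strand at chr5:90890995-90891194.
Cxcl1: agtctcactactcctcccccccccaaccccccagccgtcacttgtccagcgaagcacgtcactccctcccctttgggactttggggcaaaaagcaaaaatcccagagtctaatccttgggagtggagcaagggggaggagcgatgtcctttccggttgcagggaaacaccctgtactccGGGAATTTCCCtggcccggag
Cxcl2 lies next to it on the plus strand at chr5:90903649-90903848.
Cxcl2: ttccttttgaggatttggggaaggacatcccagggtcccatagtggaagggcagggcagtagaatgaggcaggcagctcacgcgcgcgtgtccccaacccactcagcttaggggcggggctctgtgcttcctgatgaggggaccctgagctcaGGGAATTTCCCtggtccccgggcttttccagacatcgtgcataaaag
Cxcl10 lies on the minus strand at chr5:92348940-92349139.
Cxcl10: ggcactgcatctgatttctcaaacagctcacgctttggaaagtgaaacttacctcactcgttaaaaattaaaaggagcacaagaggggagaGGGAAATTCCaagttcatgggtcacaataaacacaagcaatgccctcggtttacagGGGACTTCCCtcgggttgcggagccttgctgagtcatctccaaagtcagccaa
Ccl3, which fell in Zeb1-CKO cells, lies on the minus strand at chr11:83649429-83649628 and is shown for contrast.
Ccl3: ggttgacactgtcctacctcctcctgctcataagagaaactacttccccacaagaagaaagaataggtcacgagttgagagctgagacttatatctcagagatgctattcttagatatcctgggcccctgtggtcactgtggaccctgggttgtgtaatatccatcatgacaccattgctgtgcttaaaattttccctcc

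Cxcl1 and Cxcl2 carry the same 11 capital letters, in which a pair of overlapping matches to the consensus is shifted by 1 base. Cxcl10 has a pair of separate matches, beginning 159 and 103 bases before its start. The RefSeq table gave a promoter for 14 of the 19 fitted members, and Ccl2, Ccl4, Ccl7, Ccl11 and Cxcl16 are not among them, so Ccl3 is the only called gene searched. Of the 14, 4 held an NF-kappaB match, the fourth being the scavenger receptor gene Ackr2, against 3.13% of 32851 promoter windows of the same length. The E-box CACCTG, a sequence that ZEB1 is known to bind, was searched on both strands. It was found in 1 of the 14, Ccl27a, against 14.43% of the 32851 windows, which leave out the chromosome of Zeb1. Ccl27a has several windows, and the match lies only in the one whose RefSeq start is 4035 bases from the gene's start used here. The share over all windows counts windows, not genes. No letters of the Ccl3 window matched either motif, which says only that these letters are not in this window.

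Ccl3 and Ccl4, inflammatory CC ligands made mainly by macrophages, microglia and lymphocytes, were both far lower in Zeb1-CKO cells. Ccl3 (ENSMUSG00000000982.5, mm10 chromosome 11, 83647844 to 83649355, minus strand) had 2.85 and 2.04 FPKM in Zeb1-CKO libraries, against 19.4 and 24.9 FPKM in controls. Its levels were close within each genotype and far apart between them. The mean was 9.05-fold lower in Zeb1-CKO, with a log2 fold change of -2.75 (SE 0.20) and a limma adjusted p of 0.00328.

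Ccl4 (ENSMUSG00000018930.3, mm10 chromosome 11, 83662584 to 83664683, plus strand) had 1.48 and 0.452 FPKM in Zeb1-CKO libraries, against 18.6 and 34.4 FPKM in controls. The genotypes did not overlap, but both pairs of libraries were wider apart than for Ccl3. From the estimated depth, these values rest on about 21.4 and 5.0 fragments in Zeb1-CKO libraries and on 252 and 254 in controls. Its mean was 27.4-fold lower in Zeb1-CKO, with a log2 fold change of -3.79 (SE 0.37) and a limma adjusted p of 0.00917. Without Zeb1-CKO replicate 2 the limma adjusted p was 0.0550, and with no filter on low values it was 0.0898.

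The transcription starts of Ccl3 and Ccl4 are 13229 bases apart on opposite strands. In the same cluster, Ccl6, a mouse macrophage chemokine 56.3 kb from Ccl3, had 1.21 and 1.06 FPKM in Zeb1-CKO and 1.29 and 2.25 FPKM in control libraries, with a log2 fold change of -0.36 (SE 0.24; limma adjusted p 0.504). Ccl5, an attractant of T cells and monocytes at 118.8 kb, was too low to be fitted, at 0.0519 and 1.32 FPKM in Zeb1-CKO against 0.251 and 0 FPKM in control libraries. Ccl9 stayed under 1 FPKM throughout. Of the 16 genes listed as myeloid chemokines and receptors, 3 were fitted, all with a negative log2 fold change, and 2 of these, Ccl3 and Ccl4, passed limma. The 9 myeloid ligands summed to 7.23 and 4.60 FPKM in Zeb1-CKO against 40.0 and 63.2 FPKM in control libraries. Without Ccl3 and Ccl4, the remaining 7 summed to 2.90 and 2.11 FPKM in Zeb1-CKO against 2.07 and 3.96 FPKM in control libraries, and the genotypes overlapped. An exact two-sided permutation test gave 0.333 for the first sum, the smallest p that 2 libraries against 2 allow, and 1 for the second.

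**Figure D2:**
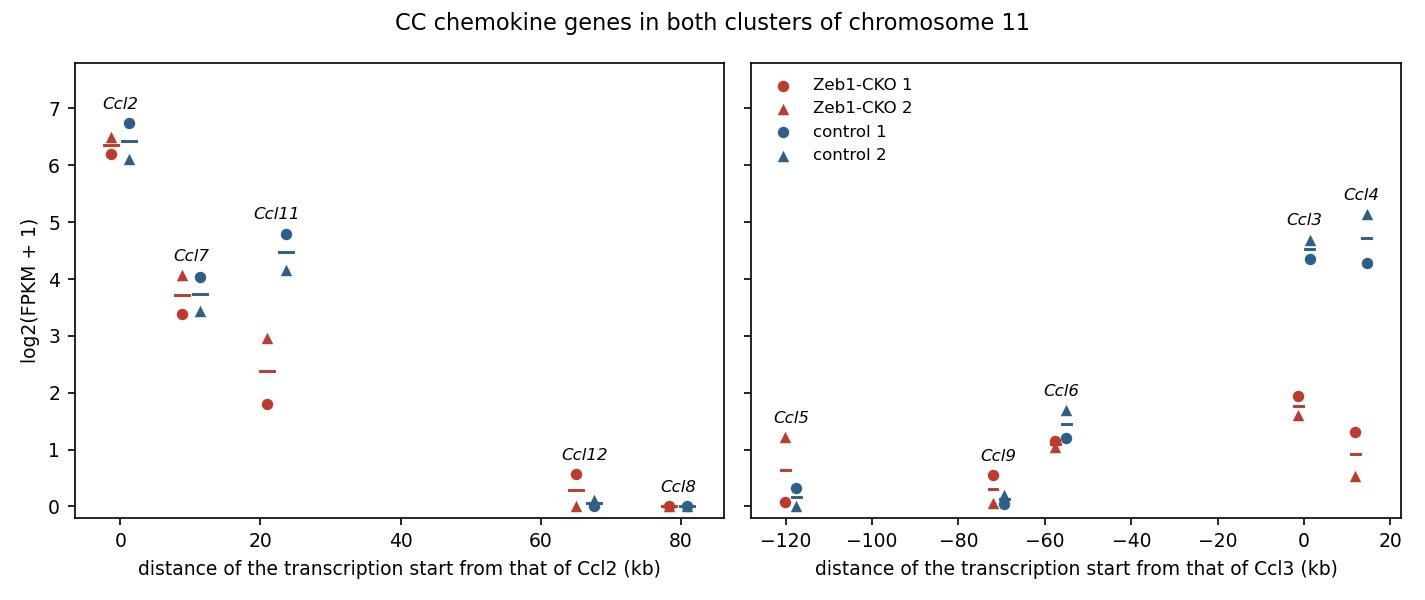
Levels as log2(FPKM + 1) of CC chemokine genes against the distance of their transcription start, in kb, from that of Ccl2 (left) and Ccl3 (right), with Zeb1-CKO libraries in red left of controls in blue and short lines at the means; the groups are drawn slightly apart around each start. Ccl3 and Ccl4 are adjacent and both low in Zeb1-CKO libraries; beside Ccl11, the genes Ccl2 and Ccl7 overlap between genotypes.

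Several microglia markers were also lower in Zeb1-CKO libraries, though none passed the test. Of 20 listed, 12 were fitted, 10 with a negative log2 fold change, 8 with an unadjusted p under 0.05 and a median of -1.05. The signalling adaptor Tyrobp had 1.86 and 1.67 FPKM in Zeb1-CKO against 5.12 and 19.1 FPKM in controls, a log2 fold change of -2.00 (SE 0.53) at a limma adjusted p of 0.127. The complement gene C1qb had 2.47 and 1.22 FPKM in Zeb1-CKO against 5.03 and 15.7 FPKM in controls, -1.85 (SE 0.50) at a limma adjusted p of 0.130. For both genes control 1 lay between the Zeb1-CKO libraries and control 2. Control 2 was also the higher control for Ccl3, at 24.9 against 19.4 FPKM in control 1, and for Ccl4, at 34.4 against 18.6 FPKM.

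The summed list, which follows its most abundant members, overlapped between genotypes, at 112 and 108 FPKM in Zeb1-CKO and 83.6 and 158 FPKM in control libraries. The defining genes P2ry12, Tmem119 and Aif1 were low in all libraries and were not fitted. P2ry12 was higher in both Zeb1-CKO libraries, at 0.861 and 0.993 FPKM against 0.615 and 0.441 FPKM in controls. Tmem119 had 0.216 and 0.101 FPKM in Zeb1-CKO against 0.236 and 0.739 FPKM in controls. Aif1 was listed at 0 and 0.309 FPKM in Zeb1-CKO against 0.0549 and 1.20 FPKM in controls, the last being the highest of these values. Ccl3 plus Ccl4 per summed microglia marker was 0.0387 and 0.0230 in Zeb1-CKO against 0.454 and 0.375 in control libraries. Per summed C1qa, C1qb and C1qc, a choice made after seeing the data, it was 1.07 and 0.570 in Zeb1-CKO against 4.25 and 1.70 in controls. Both ratios were lower in both Zeb1-CKO libraries, which shows unequal change only. The part of microglia in the fall of Ccl3 and Ccl4 was not tested, and in bulk samples fewer cells of a type and less RNA per cell cannot be told apart.

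**Figure D3:**
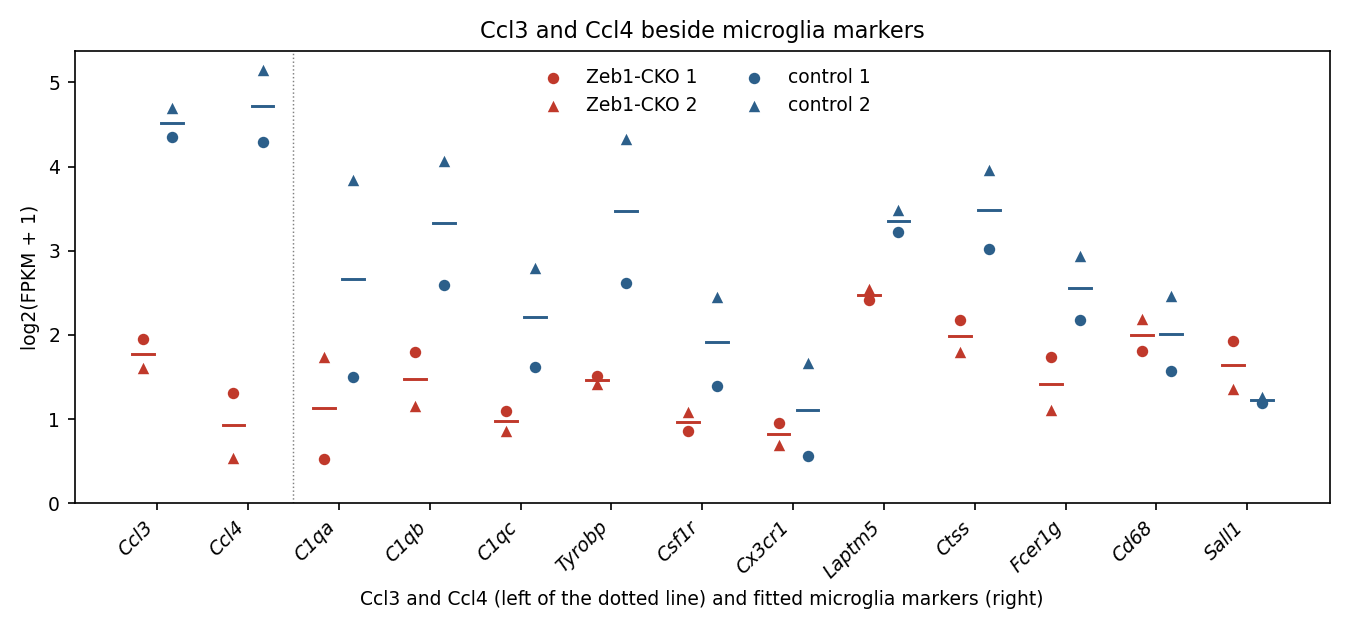
Levels as log2(FPKM + 1) of Ccl3, Ccl4 and 11 fitted microglia markers in each library, Zeb1-CKO in red left of control in blue, with short lines at the means. Most of these markers are highest in control 2, and Ccl3 and Ccl4 are low in both Zeb1-CKO libraries and high in both controls.

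Red-cell markers were also lower beside Ccl3 and Ccl4. All 5 were fitted and were lower in both Zeb1-CKO libraries, with a sum of 745 and 1409 FPKM in Zeb1-CKO against 2727 and 3298 FPKM in control libraries. Their median log2 fold change was -1.54, all 5 had an unadjusted p under 0.05 and none passed limma. Their part in the fall of Ccl3 and Ccl4 was not tested.

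Other macrophage and monocyte markers overlapped between genotypes, with a sum of 44.9 and 20.2 FPKM in Zeb1-CKO and 27.3 and 40.9 FPKM in control libraries. Their most abundant members were Cd14 and Lyz2. Chemokine receptor genes listed as myeloid, not all of which bind Ccl3 or Ccl4, were barely present. The 7 myeloid receptor genes, among them Ccr1, Ccr2 and Cxcr2, together summed to 0.421 and 0.284 FPKM in Zeb1-CKO and to 0.0961 and 0.148 FPKM in control libraries, and Ccr3 was listed at 0 in all 4.

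Cxcl16, a membrane-bound ligand of Cxcr6 found on macrophages, dendritic cells and activated endothelium, was the only member higher in Zeb1-CKO cells that passed limma. Cxcl16 (ENSMUSG00000018920.11, mm10 chromosome 11, 70453983 to 70459984, minus strand) had 7.11 and 5.72 FPKM in Zeb1-CKO libraries, against 1.08 and 1.33 FPKM in controls. Both Zeb1-CKO libraries were well above both controls, which were alike. The mean was 5.32-fold higher in Zeb1-CKO, with a log2 fold change of 1.74 (SE 0.18) and a limma adjusted p of 0.0114. The limma adjusted p was 0.102 without Zeb1-CKO replicate 1, 0.0688 without Zeb1-CKO replicate 2 and 0.0898 with no filter on low values.

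Cxcl16 shares 552 of its 3021 exonic bases with Zmynd15 on the opposite strand, and these libraries do not mark strand. Zmynd15 itself was low, at 0.409 and 0.549 FPKM in Zeb1-CKO and 0.178 and 0.151 FPKM in control libraries. The receptor gene Cxcr6 was under 1 FPKM in all libraries.

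**Figure D4:**
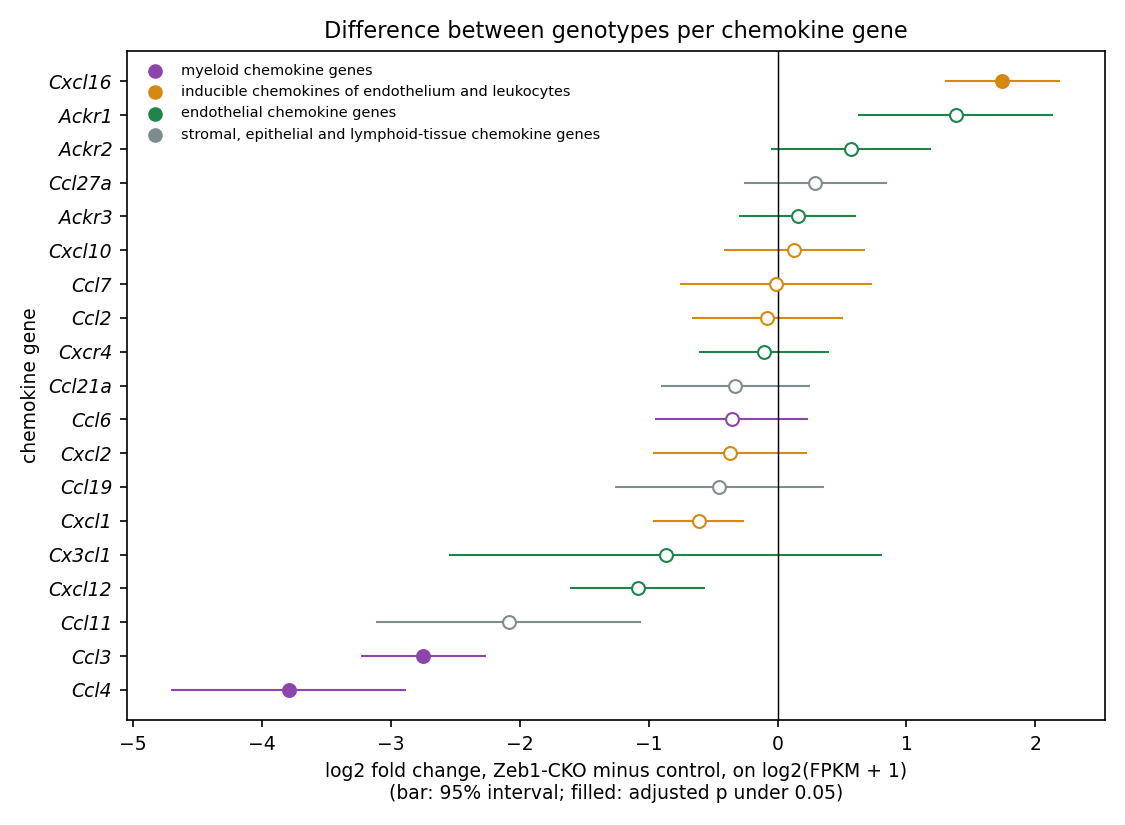
Log2 fold change, Zeb1-CKO minus control on log2(FPKM + 1), for each fitted chemokine gene with its 95% interval from limma, coloured by the list the gene belongs to; filled points passed an adjusted p of 0.05. Cxcl16 is the filled point above 0 at 1.74, and Ccl3 and Ccl4 are the filled points below 0 at -2.75 and -3.79.

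The inducible ligands that dominated the libraries did not pass the test. Cxcl1, a neutrophil attractant, had 83.5 and 79.0 FPKM in Zeb1-CKO libraries, against 135 and 115 FPKM in controls. Both Zeb1-CKO libraries were below both controls, with a log2 fold change of -0.61 (SE 0.14) and a limma adjusted p of 0.0943. Cxcl2, its neighbour 12630 bases away and a ligand of the same receptor, had 6.62 and 4.25 FPKM in Zeb1-CKO and 6.13 and 8.37 FPKM in control libraries, which overlapped. Its log2 fold change was -0.37 (SE 0.24; limma adjusted p 0.489).

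Ccl2, the main monocyte attractant and ligand of Ccr2, had 72.9 and 89.0 FPKM in Zeb1-CKO libraries, against 106 and 68.3 FPKM in controls. The control pair enclosed the Zeb1-CKO pair, and the log2 fold change was -0.08 (SE 0.24; limma adjusted p 0.895), with a 95% interval of -0.67 to 0.51. Ccl7, another Ccr2 ligand, had 9.40 and 15.8 FPKM in Zeb1-CKO against 15.4 and 9.84 FPKM in control libraries, at -0.01 (SE 0.30; limma adjusted p 0.987). Cxcl10, an interferon-induced ligand of Cxcr3, had 26.9 and 29.8 FPKM in Zeb1-CKO against 31.9 and 20.8 FPKM in control libraries, at 0.13 (SE 0.22; limma adjusted p 0.804). It shares 133 of 2252 exonic bases with Art3 on the opposite strand, and Art3 was at 10.2 to 14.7 FPKM.

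Of the 10 inducible members listed, 6 were fitted, and Cxcl16 was the only call among them. Cxcl1 and Ccl2 together made up 67.3% and 61.2% of the summed ligand FPKM in Zeb1-CKO libraries and 59.8% and 53.2% in controls. All 37 ligands summed to 232 and 275 FPKM in Zeb1-CKO and to 403 and 344 FPKM in control libraries, while the 21 receptors summed to 34.2 and 30.8 FPKM in Zeb1-CKO and to 26.8 and 23.1 FPKM in control libraries. Neither sum overlapped between genotypes, and an exact two-sided permutation test gave the smallest possible p of 0.333 for each.

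All 6 genes listed as endothelial chemokines and receptors were fitted, and none passed limma; 2 had an unadjusted p under 0.05. Their sum was 41.1 and 56.9 FPKM in Zeb1-CKO and 55.5 and 52.7 FPKM in control libraries, with an exact two-sided permutation p of 1. Cxcl12, the ligand that guides cells bearing Cxcr4, had 4.55 and 4.21 FPKM in Zeb1-CKO libraries, against 8.48 and 12.7 FPKM in controls. Both Zeb1-CKO libraries were below both controls, with a log2 fold change of -1.09 (SE 0.21) and a limma adjusted p of 0.0611. Without control replicate 1 it passed, with a limma adjusted p of 0.0336. Beside it, all 10 fitted markers of pericytes and smooth muscle, cells also known to make Cxcl12, had lower values in both Zeb1-CKO libraries; 1 of them passed limma, Tagln, at 7.85 and 8.57 FPKM in Zeb1-CKO against 16.6 and 14.8 FPKM in controls (log2 fold change -0.85, adjusted p 0.0429). Their part in the Cxcl12 values was not tested.

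The signalling and scavenging receptors of Cxcl12 showed no such gap. Cxcr4 had 9.10 and 6.64 FPKM in Zeb1-CKO against 7.46 and 9.57 FPKM in control libraries, with a log2 fold change of -0.11 (SE 0.20; limma adjusted p 0.828) and a 95% interval of -0.61 to 0.40. Ackr3, the atypical receptor that removes Cxcl12, had 7.34 and 7.15 FPKM in Zeb1-CKO against 7.55 and 5.41 FPKM in control libraries, at 0.16 (SE 0.18; limma adjusted p 0.716) and an interval of -0.30 to 0.61.

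Cx3cl1, the membrane-bound chemokine known as fractalkine, had 4.45 and 24.7 FPKM in Zeb1-CKO libraries, against 22.5 and 18.9 FPKM in controls. Zeb1-CKO 1 stood apart from the other 3 libraries, and the log2 fold change of -0.87 (SE 0.68) did not pass limma, with an adjusted p of 0.567. Leaving out Zeb1-CKO replicate 1 turned it to 0.25 (adjusted p 0.620), and leaving out Zeb1-CKO replicate 2 gave -1.99, which passed limma at an adjusted p of 0.0444. Its receptor gene Cx3cr1, a microglia gene, had 0.931 and 0.614 FPKM in Zeb1-CKO against 0.470 and 2.17 FPKM in control libraries, with a limma adjusted p of 0.751.

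Among the atypical receptors, Ackr1, which carries chemokines across venular endothelium, had 3.05 and 5.58 FPKM in Zeb1-CKO libraries, against 1.36 and 0.664 FPKM in controls. Both Zeb1-CKO libraries were above both controls, with a log2 fold change of 1.38 (SE 0.31) and a limma adjusted p of 0.0832. Ackr1 shares 361 of 1405 exonic bases with Cadm3 on the same strand. Ackr2, a scavenger of inflammatory CC chemokines, had 12.6 and 8.62 FPKM in Zeb1-CKO against 8.19 and 5.44 FPKM in control libraries. The lower Zeb1-CKO library lay just above the higher control, and the log2 fold change was 0.57 (SE 0.25; limma adjusted p 0.313).

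Of the 15 genes listed for stroma, epithelium and lymphoid tissue, 4 were fitted and none passed limma; 1 had an unadjusted p under 0.05. Ccl11, the eosinophil attractant eotaxin, had 2.50 and 6.84 FPKM in Zeb1-CKO libraries, against 26.8 and 16.8 FPKM in controls. Both Zeb1-CKO libraries were below both controls, with a log2 fold change of -2.09 (SE 0.41) and a limma adjusted p of 0.0638. Ccl2, Ccl7 and Ccl11 start within 22252 bases of each other on the plus strand of chromosome 11, and the genotypes overlapped for Ccl2 and Ccl7. Further along, Ccl12 was under 1 FPKM and Ccl8 was listed at 0 in all libraries.

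The other 3 have near-identical copies, between which the quantifier splits fragments, so their values are uncertain. Ccl21a, a ligand of Ccr7, had 2.51 and 4.21 FPKM in Zeb1-CKO against 4.79 and 3.96 FPKM in control libraries, at -0.33 (SE 0.23; limma adjusted p 0.531). Its 99.5% identical copy Ccl21b was listed at 0 in all 4. Ccl19, also a ligand of Ccr7, had 0.836 and 0.574 FPKM in Zeb1-CKO against 2.11 and 0.739 FPKM in control libraries, at -0.45 (SE 0.33; limma adjusted p 0.534). The pseudogene Ccl19-ps3, identical to it over 324 bases, was listed at 0 in both Zeb1-CKO libraries and at 2.58 and 1.67 FPKM in controls, with a limma adjusted p of 0.0331. Ccl27a, a ligand of Ccr10 known from skin, had 1.45 and 2.03 FPKM in Zeb1-CKO against 1.01 and 1.47 FPKM in control libraries, at 0.29 (SE 0.22; limma adjusted p 0.559). The copy Ccl27b was listed at 0 in all libraries.

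The other 39 members were below the mean of 1 FPKM. Of these, 3 reached 1 FPKM in some library, namely Ccl5, given above, and 2 others. Ccl17, a ligand of Ccr4, had 0.736 and 0.960 FPKM in Zeb1-CKO against 0.742 and 1.39 FPKM in control libraries. Ccl25, the thymic and gut ligand of Ccr9, had 0.770 and 0.952 FPKM in Zeb1-CKO against 0.954 and 1.01 FPKM in control libraries. A further 28 were above 0 somewhere but did not exceed 0.854 FPKM, among them the lymphocyte receptor genes Ccr10, Ccr9, Ccr7, Ccr4 and Cxcr6. The remaining 8, Ccl8, Ccl21b, Ccl26, Ccl27b, Cxcl13, Xcl1, Ccr3 and Ccr8, were listed at 0 in all libraries. None of the 11 members listed as lymphocyte chemokines and receptors was fitted, and 10 lymphocyte markers summed to 0.730 and 2.50 FPKM in Zeb1-CKO and 0.929 and 0.560 FPKM in control libraries.

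The machinery around chemokines showed no called gene. Of 43 genes listed for signalling downstream of chemokine receptors, 31 were fitted, 5 had an unadjusted p under 0.05 and 0 passed limma. The most abundant were the small GTPase Cdc42, with 248 and 239 FPKM in Zeb1-CKO against 199 and 180 FPKM in control libraries, and the G protein regulator Rgs16, with 83.7 and 91.1 FPKM against 131 and 137 FPKM in controls. Rac1 had 125 and 135 FPKM in Zeb1-CKO against 128 and 40.5 FPKM in control libraries, with control 2 alone low. Heparan sulfate holds chemokines on the vessel wall, and its list of 20 genes also includes the peptidase gene Dpp4. Of the list, 17 were fitted, 2 had an unadjusted p under 0.05 (Ext1 and Dpp4) and 0 passed limma. The most abundant were the polymerase gene Ext2, at 28.3 and 30.5 FPKM in Zeb1-CKO against 23.8 and 28.6 FPKM in controls, and the proteoglycan gene Sdc2, at 21.1 and 23.7 FPKM in Zeb1-CKO against 29.7 and 23.9 FPKM in controls.

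Of 11 genes for NF-kappaB subunits and their feedback regulators, all were fitted, 9 had a negative log2 fold change and 0 passed limma. An unadjusted p under 0.05 was found for 2, against 17.9% of all fitted genes. The largest change in this list was that of Bcl3, with 4.58 and 8.29 FPKM in Zeb1-CKO against 16.7 and 15.8 FPKM in control libraries. Its log2 fold change was -1.26 (SE 0.26), with a limma adjusted p of 0.0680. The inhibitor gene Nfkbia, itself induced by NF-kappaB, had 537 and 521 FPKM in Zeb1-CKO against 645 and 629 FPKM in control libraries, with a log2 fold change of -0.27 (SE 0.13; limma adjusted p 0.355). The subunit gene Rela had 68.2 and 62.5 FPKM in Zeb1-CKO against 63.2 and 74.4 FPKM in control libraries.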

How the data were processed

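RNA from 100 sorted cells per library was amplified with SMART-Seq v4, sheared and sequenced as paired reads, per the labels' protocols. The tools were Trimmomatic 0.36, HISAT2 2.1.0 and StringTie 1.3.3 with genome build mm10, per the submitters' processing notes; no settings and no annotation release were given in the sources used here. The authors deposited FPKM per gene; the unit was inferred from the values and the tools, since the header gives none. FPKM are not counts, so no count test was run. Values were tested as log2(FPKM + 1) with limma 3.58.1 (R 4.3.3, intensity trend, no covariates) for the 13651 genes averaging at least 1 FPKM, with Benjamini-Hochberg adjustment over all of them; the code was tested on simulated data. Summed levels were compared by exact permutation over libraries.

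Depth was estimated from steps in FPKM times length of low genes, where 24.3% to 29.9% of values lay within 0.02 of a whole step, against 4% at random, so it is approximate. Amplified reads carry no molecular identifiers. Versioned identifiers of all 58 members matched GENCODE M21, which gave spans, and transcripts were compared by BLAST 2.17.0 (copies: at least 95% identity over 80% of a transcript and 200 bases). Promoters came from RefSeq for 44 members. Named genes were Zeb1, every fitted member, unfitted members reaching 1 FPKM and, per other list, called genes or the 2 most abundant; Tyrobp, C1qb, P2ry12, Tmem119, Aif1, Rac1, Bcl3, Cxcr6 and the genes sharing sequence with members were added after their values were seen. Results of some listed genes are not reported here. Members and lists were chosen with earlier results of these data known. Alternatives changed the pseudocount, filter, scaling, variance model or threshold, left out 1 library or added a block for the replicate number. Figures were drawn with matplotlib 3.10.9.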

Additional observations from a re-analysis of the deposited data

How the results depend on the processing

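Ccl3 was called lower under all 15 alternatives, with limma adjusted p between 0.00276 and 0.0365. Over all 278 comparisons of a fitted member with an alternative, 261 kept direction and side of the threshold, 5 lost a call, 2 gained one and 10 changed sign; causes were not tested. The 427 genes called over the whole table became 193 with the replicate block, 85 with no filter, 257 with a mean of at least 5 FPKM and 859 at an adjusted p of 0.1, and 66 to 302 with each library left out. The 3 chemokine calls became 1 (Ccl3) with no filter and 7 at an adjusted p of 0.1, which added Ackr1, Ccl11, Cxcl1 and Cxcl12, and 2 to 4 with a library left out. Signalling calls were 2 at that threshold and ranged over 0 to 1 with a library left out, and NF-kappaB genes then gave 1 (Bcl3). Replicate numbers only name libraries (deviations of same-numbered libraries correlated at -0.12), and the replicate block left 3 chemokine calls. A crossed pairing, chosen after seeing the data, gave 455 calls over the whole table, 6 among chemokine genes, 1 among signalling genes and 1 among NF-kappaB genes.

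With a library left out, 6 log2 fold changes that had not passed changed sign, and ranged over -0.053 to 0.36 for Ackr3, -0.39 to 0.23 for Ccl2, -0.36 to 0.33 for Ccl7, -1.99 to 0.25 for Cx3cl1, -0.17 to 0.43 for Cxcl10 and -0.31 to 0.10 for Cxcr4; scaling to TPM gave 0.017 for Ccl7. The log2 difference of summed myeloid ligands was -3.13, and -0.21 without Ccl3 and Ccl4. That of endothelial genes was -0.16, ranged over -0.40 to 0.073 with a library left out and was 0.016 without Cxcl12. That of Ccl3 plus Ccl4 per microglia marker was -3.79, and -1.78 per C1qa, C1qb and C1qc. Low genes such as Ccl4 in Zeb1-CKO cells rest on few fragments, and 2 libraries per genotype limit all tests.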

Other observations

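Some chemokine-related genes fall outside the name rule. Of 9 listed, 7 were fitted and 1 passed limma. Cd74, the invariant chain of MHC class II and a receptor for Mif, had 5.05 and 5.60 FPKM in Zeb1-CKO libraries, against 1.28 and 1.36 FPKM in controls. Both Zeb1-CKO libraries were above both controls, with a log2 fold change of 1.45 (SE 0.16) and a limma adjusted p of 0.0149. Mif itself had 172 and 231 FPKM in Zeb1-CKO against 185 and 149 FPKM in control libraries, with a limma adjusted p of 0.554. Pf4, the platelet chemokine also made by some macrophages, had 11.5 and 6.74 FPKM in Zeb1-CKO against 3.03 and 1.84 FPKM in control libraries, with a log2 fold change of 1.54 (SE 0.29) that did not pass limma, at an adjusted p of 0.0576.

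Of 8 markers of neutrophils, the cells that Cxcl1 and Cxcl2 attract, only the cytokine receptor gene Csf3r was fitted. It had 4.86 and 6.40 FPKM in Zeb1-CKO libraries, against 1.94 and 2.13 FPKM in controls, a log2 fold change of 1.12 (SE 0.18) that passed limma at an adjusted p of 0.0401. The granule and receptor genes S100a8, S100a9, Ngp, Camp, Ly6g and Cxcr2 were at or near 0, with 1.33 FPKM of S100a8 in Zeb1-CKO 1 as the highest value.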
